A study of Homo sapiens with 6 samples.

Results

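The 10 genes described here encode the enzymes that place methyl groups on lysine 9 of histone H3 (SETDB1, SETDB2, EHMT1, EHMT2 and SUV39H2), the HP1 proteins that read this mark (CBX1, CBX3 and CBX5), and a corepressor and a cofactor that work with SETDB1 (TRIM28 and ATF7IP). They were chosen by symbol for these functions from the 47470 genes of the count tables, and all 10 had enough reads to be tested. Their measured values were not a criterion, but earlier results of these data were known when they were chosen. The cells were HEK293T, an established line derived from human embryonic kidney and carrying large T antigen of SV40, and their RNA was sequenced. The untreated group, labelled WT for its genotype, and the group given valproic acid (VPA, a drug that blocks histone deacetylases) at 1 mM for 1 day had 3 libraries each, 6 in all, and both were of the same line with no engineered allele in the labels. Total RNA was extracted with TRIzol and made into strand-specific mRNA libraries, and the deposited values are raw read counts per gene. The labels do not say whether the 3 libraries of a group came from separate cultures, so that p-values measure the spread between these libraries, which may be technical.

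Methylation of histone H3 at lysine 9 marks heterochromatin, the compact and mostly silent part of the genome. HP1 proteins bind the methylated lysine through a chromodomain, pair with each other through a chromoshadow domain and recruit further methyltransferase, so that the mark can spread along the chromatin fibre. TRIM28, which is brought to DNA by KRAB zinc finger proteins, recruits SETDB1 and HP1 to silence transposable elements, and ATF7IP keeps SETDB1 stable and in the nucleus. Histone deacetylases clear acetyl groups from the same lysine before it can be methylated.

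The 3 HP1 genes are paralogs whose values moved in different directions, and their promoters are shown for that reason. The windows run from 250 bases before to 50 bases after the start of each gene in RefSeq on GRCh38.p14. They are written 5′ to 3′ on the strand of the gene, and RefSeq held an entry for 9 of the 10 genes. The gene coordinates given below are from GENCODE, which places some starts elsewhere. The CBX1 and CBX3 windows lie wholly inside those coordinates. For these genes no base before the GENCODE start was thus searched. Capitals mark the letters that matched 1 of 4 motifs on either strand. The motifs were GCGC, any 2 bases and GCGC again (the NRF1 motif), TTTGGCG (E2F), GGGCGG (the GC box) and CCAAT, and they were picked after the sequences had been seen.
CBX1, minus strand of chr17:48101137-48101436: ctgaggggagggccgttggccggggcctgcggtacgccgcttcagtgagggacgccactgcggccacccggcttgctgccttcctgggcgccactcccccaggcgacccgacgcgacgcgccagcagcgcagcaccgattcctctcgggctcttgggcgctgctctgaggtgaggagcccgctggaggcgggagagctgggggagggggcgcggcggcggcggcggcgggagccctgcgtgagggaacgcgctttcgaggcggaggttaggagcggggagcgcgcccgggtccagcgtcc
CBX3, plus strand of chr7:26201193-26201492: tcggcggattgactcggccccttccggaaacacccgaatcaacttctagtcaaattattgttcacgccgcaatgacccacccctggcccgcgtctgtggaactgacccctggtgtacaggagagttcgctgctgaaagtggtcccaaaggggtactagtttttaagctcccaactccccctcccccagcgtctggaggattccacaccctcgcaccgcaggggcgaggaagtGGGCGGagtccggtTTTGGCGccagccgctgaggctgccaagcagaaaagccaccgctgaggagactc
CBX5, minus strand of chr12:54280073-54280372: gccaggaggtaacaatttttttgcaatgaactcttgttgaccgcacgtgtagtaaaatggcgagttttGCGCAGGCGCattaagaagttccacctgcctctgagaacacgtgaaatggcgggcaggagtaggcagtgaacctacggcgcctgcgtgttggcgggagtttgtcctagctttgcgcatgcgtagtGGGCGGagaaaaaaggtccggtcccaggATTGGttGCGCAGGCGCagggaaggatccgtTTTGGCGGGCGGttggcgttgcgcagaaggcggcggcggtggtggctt
The CBX1 window held none of the 4 motifs, the CBX3 window held 1 E2F match and 1 GC box, and the CBX5 window held 2 NRF1 matches, 1 E2F match, 2 GC boxes and 1 CCAAT box. The E2F match in CBX5 shares a base with the GC box that follows it. The CBX1 window was the richest of the HP1 windows in G and C, with 75.7% and 38 CpG pairs, against 60.0% and 19 in CBX3 and 57.3% and 25 in CBX5, where the medians over 35114 RefSeq windows of this length were 58.7% and 14. Over all of these windows 8.32% held the NRF1 motif, 1.92% the E2F motif, 45% the GC box and 34.6% CCAAT. For each gene described here only the most upstream window was taken, while the 35114 windows can include several of a gene. The 2 sets are thus not alike. Among the 9 windows of the genes described here the numbers were 3, 2, 7 and 3. A match describes the letters in this window and is not evidence of a bound site.

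Each library had between 18622267 and 18828495 counts on genes, and 15298 genes passed the filter on low counts and were tested. Values are given as counts after TMM normalization, which scales each library by a trimmed mean of gene ratios, and a fold change is from edgeR with the adjusted p of its quasi-likelihood test over all tested genes. As a check of the treatment, CDKN1A, which encodes the cell cycle inhibitor p21 and commonly rises with deacetylase inhibitors, had 307 ± 33.6 normalized counts untreated and 484 ± 36.5 after VPA (SD, n = 3 each; log2 fold change 0.66, adjusted p = 3.33e-07, edgeR). All 6 markers of the line were counted in every library, from PAX2 at 29.3 to 143 normalized counts to VIM at 8703 to 10899, while PTPRC, CD3E, PECAM1, CDH5, ALB and AFP, defining genes of blood, endothelium and liver, were between 0 and 7.66. In bulk RNA a lower value cannot tell fewer cells that express a gene from less RNA per cell.

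After VPA, 7 of the 10 genes fell and 2 rose at an adjusted p under 0.05, and SETDB2 did not pass the test, while with ribosomal protein genes held constant 4 fell and 2 rose. Over all tested genes 30.0% were called lower and 32.9% higher at this threshold, 62.9% in all. Among the 6035 tested genes with mean counts in the range of the 9 well-counted genes described here, 51.9% were called lower and 17.7% higher, so that being lower was the more common outcome at these levels. The median log2 fold change of the 10 genes was -0.33, against 0.0058 over all tested genes and -0.13 over the genes of like counts. Of all tested genes, 2.7% had a log2 fold change at or below that of CBX5, 3.33% at or below TRIM28, 7.31% at or below SETDB1 and 19.8% at or below EHMT1. None of the 10 also reached the size that the study asked for, 1 on the log2 scale, where 0.503% of tested genes were called lower and 12.0% higher, 12.5% in all. In 9 of the 10 genes the values of the 2 groups did not overlap, with 7 lower and 2 higher in every VPA library, against 31.0% and 34.8% of all tested genes, or 65.8% in either direction.

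**Figure D1:**
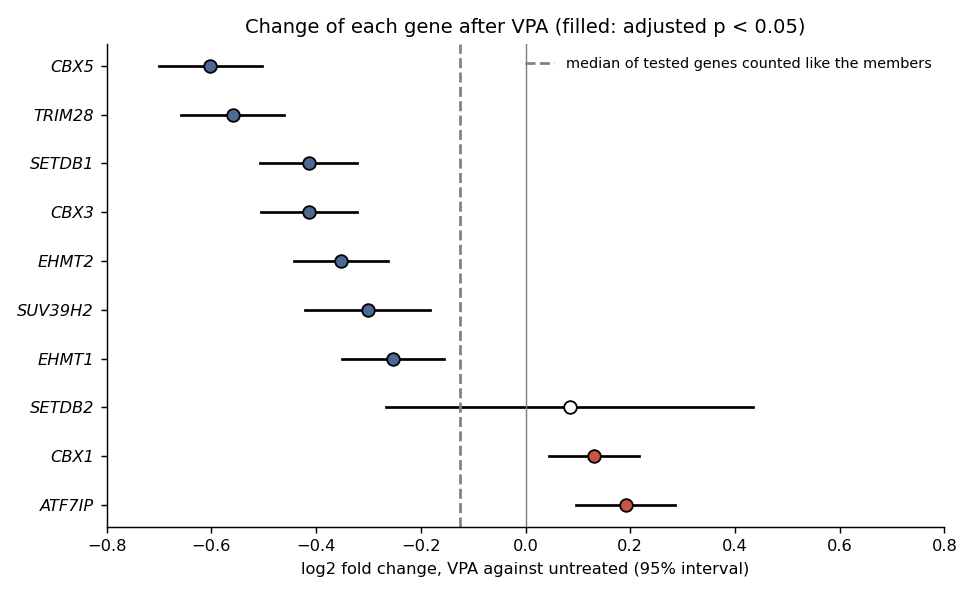
Log2 fold change (x axis, TMM scaling) of each of the 10 genes in VPA-treated against untreated HEK293T cells, n = 3 libraries each, with the 95% interval of the edgeR fit as a line. Filled points passed an adjusted p of 0.05, and the dashed line is the median of the 6035 tested genes of like counts, at -0.13. CBX5 and TRIM28 lie farthest to the left, and CBX1 and ATF7IP lie to the right of 0.

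Of the 5 methyltransferase genes 4 fell and none rose, and with ribosomal protein genes held constant only SETDB1 fell and EHMT1 turned to 0.018. SETDB1, on chr1:150926263-150964744 (plus strand, GENCODE 44 on hg38), encodes the trimethylase that acts with TRIM28. It had 2220, 2343 and 2431 normalized counts untreated and 1750, 1766 and 1731 after VPA. The VPA libraries lay close together and below every untreated library. The means were 2331 ± 106 and 1749 ± 17.4 (SD, n = 3 each), with -0.41 as the log2 fold change (SE 0.044, adjusted p = 5.11e-08, edgeR). Its exons overlap those of CERS2 on the opposite strand, and the strand setting of the counting is not given in the sources used here.

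EHMT2 and EHMT1, also called G9a and GLP, form the heterodimer that adds 1 or 2 methyl groups to lysine 9 in gene-rich chromatin. EHMT2, on chr6:31879759-31897698 (minus strand), had 2748, 2659 and 2595 normalized counts untreated and 2172, 2026 and 2072 after VPA. Every VPA library was below every untreated one, with a log2 fold change of -0.35 (SE 0.043, adjusted p = 3.82e-07, edgeR). EHMT1, on chr9:137618992-137870016 (plus strand), had 2289, 2078 and 2133 normalized counts untreated and 1834, 1880 and 1741 after VPA. These groups did not overlap either, although the untreated libraries 2 and 3 were nearer to the VPA libraries, and the log2 fold change was -0.25 (SE 0.047, adjusted p = 8.04e-05, edgeR). The ratio of EHMT2 to EHMT1 counts was 1.20, 1.28 and 1.22 untreated and 1.18, 1.08 and 1.19 after VPA. The difference of -0.10 on the log2 scale gave p = 0.10 in a two-sided exact permutation test, the smallest that 3 against 3 libraries allow, so that no ratio between single genes could pass 0.05, and without VPA replicate 2 the difference was -0.053.

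SUV39H2, on chr10:14878820-14904315 (plus strand), encodes a trimethylase of pericentromeric heterochromatin. It had 709, 791 and 748 normalized counts untreated and 608, 605 and 612 after VPA. All 3 VPA libraries were nearly equal and lay below the lowest untreated library, with a log2 fold change of -0.30 (SE 0.057, adjusted p = 9.65e-05, edgeR). DCLRE1C overlaps its exons on the opposite strand. Its paralog SUV39H1, on chromosome X, is listed at 0 in all 6 libraries, as are all but 1 of the 1235 genes of chromosomes X and Y in the tables, so that the level of the pair is not known from these counts.

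SETDB2, on chr13:49444274-49495003 (plus strand), a relative of SETDB1 with a role in mitosis, was the least counted of the 10 genes with 295 reads over the 6 libraries. It had 46.6, 47.1 and 49.3 normalized counts untreated and 49.8, 59.7 and 42.1 after VPA. The VPA libraries lay on both sides of the untreated ones, and the log2 fold change of 0.084 had a 95% interval from -0.27 to 0.43 (adjusted p = 0.684, edgeR), which includes the fold changes of EHMT1 and CBX1. The tables also hold a row for the readthrough gene SETDB2-PHF11, at 0 in every library, and reads on exons shared by both rows would be set aside as ambiguous, so that the SETDB2 level is uncertain.

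**Figure D2:**
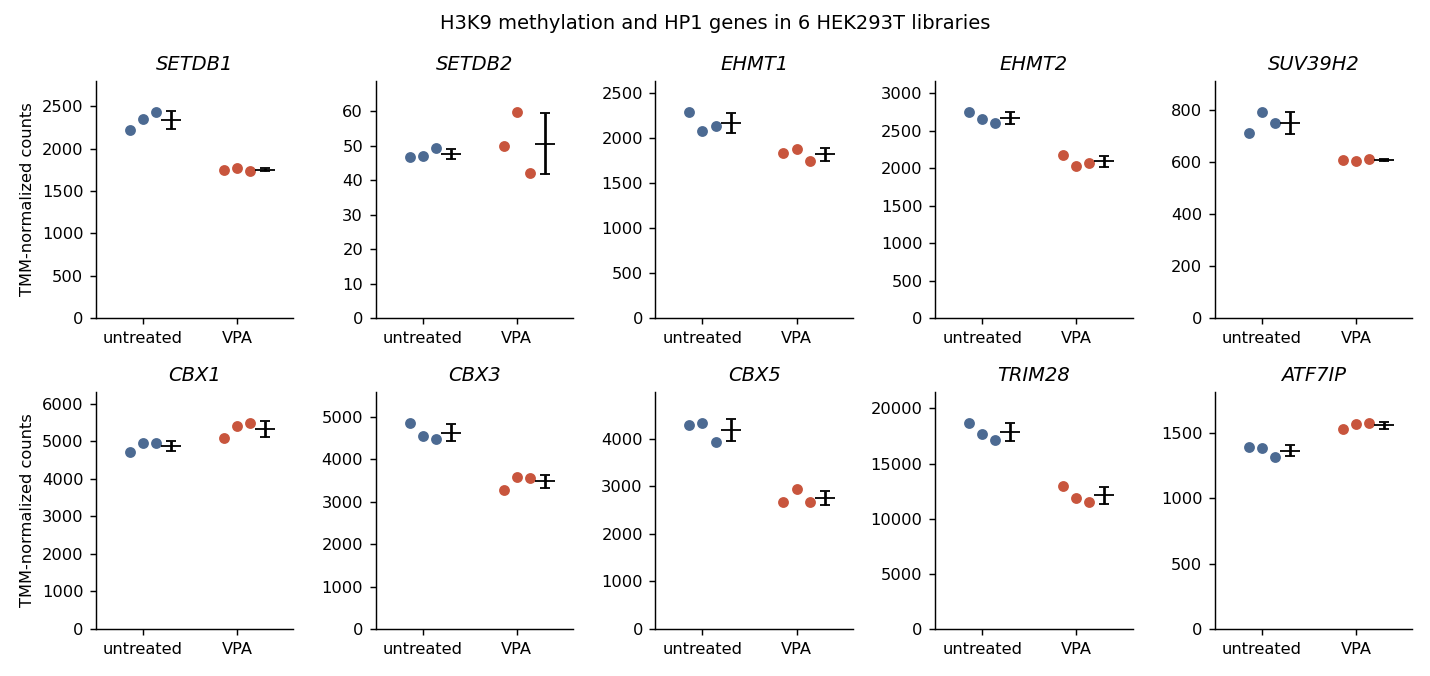
TMM-normalized counts (y axis, from 0, with a scale of its own in each panel) of the 10 genes in the 3 untreated (blue) and 3 VPA (red) libraries, 1 point a library. Black bars give the mean and SD of each group. The groups overlap in SETDB2 and in no other panel, and the VPA points lie above the untreated points in CBX1 and ATF7IP.

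The HP1 genes did not move together, with CBX5 and CBX3 lower and CBX1 higher after VPA. CBX5, which encodes HP1 alpha, the form most tied to pericentromeric heterochromatin, lies on chr12:54230942-54280133 (minus strand). It had 4288, 4338 and 3925 normalized counts untreated and 2667, 2933 and 2670 after VPA. The gap between the closest libraries of the 2 groups was wider than the range within either. The means were 4184 ± 225 and 2757 ± 153 (SD, n = 3 each), with -0.60 as the log2 fold change (SE 0.047, adjusted p = 3.98e-10, edgeR), and CBX5 had the largest change of the 10 genes.

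CBX3, which encodes HP1 gamma, a form also found over the bodies of transcribed genes, lies on chr7:26201162-26213607 (plus strand). It had 4866, 4544 and 4490 normalized counts untreated and 3289, 3577 and 3570 after VPA. The VPA libraries were all below the untreated ones, with means of 4633 ± 203 and 3479 ± 164 (SD, n = 3 each) and a log2 fold change of -0.41 (SE 0.044, adjusted p = 5.16e-08, edgeR). Part of its exons overlap HNRNPA2B1 on the opposite strand. The CBX3 pseudogene CBX3P2 had 36 reads in all, so that few reads were assigned to this copy.

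CBX1, which encodes HP1 beta, lies on chr17:48070052-48101478 (minus strand). It had 4712, 4938 and 4937 normalized counts untreated and 5090, 5394 and 5491 after VPA. The lowest VPA library was above the highest untreated one by a small margin, with means of 4862 ± 130 and 5325 ± 209 (SD, n = 3 each) and a log2 fold change of 0.13 (SE 0.041, adjusted p = 0.00864, edgeR). This call was lost with DESeq2 (log2 fold change 0.11, adjusted p = 0.0519) and in edgeR without VPA replicate 3 (0.11, adjusted p = 0.0635).

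Set against each other within a library, the HP1 genes need no scaling between libraries. There were 1.03, 0.920 and 0.909 CBX3 counts for each CBX1 count before treatment and 0.646, 0.663 and 0.650 after VPA, a difference of -0.54 on the log2 scale. For CBX5 to CBX1 the ratios were 0.910, 0.879 and 0.795 against 0.524, 0.544 and 0.486, a difference of -0.73. CBX5 was also lower against CBX3, by less, with ratios of 0.881, 0.955 and 0.874 against 0.811, 0.820 and 0.748 and a difference of -0.19. In all 3 ratios the groups did not overlap, and each had p = 0.10 in the two-sided exact permutation test, or 0.117 after Benjamini-Hochberg adjustment over the 7 ratios compared.

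Per kilobase of the MANE transcript, the agreed reference transcript of each gene, CBX1 made up 46.1% ± 1.69 of the HP1 counts in untreated libraries and 55.9% ± 0.416 after VPA (SD, n = 3 each). The share of CBX3 went from 46.5% ± 1.57 to 38.6% ± 0.268 and that of CBX5 from 7.49% ± 0.336 to 5.47% ± 0.275. CBX1 and CBX3 were thus level before treatment, and CBX1 was the most abundant HP1 transcript after it. With the length of all exons in place of the MANE transcript, CBX1 was already ahead in untreated cells, at 56.4%, and its share was 66.0% after VPA. The untreated order thus depended on the length used. A length is the same in both groups, so that a higher CBX1 share and a lower CBX5 share follow from the count ratios above with any length. The same direction with both lengths is therefore not a separate result. The sum of the 3 genes per kilobase was 4839 ± 55.5 normalized counts untreated and 4367 ± 180 after VPA with TMM. Unlike the shares, this sum depends on the scaling between libraries, and it was not computed with another. With ribosomal protein genes held constant, CBX1 had a log2 fold change of 0.40, CBX3 of -0.14 and CBX5 of -0.33. A lower HP1 total is thus not established.

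**Figure D3:**
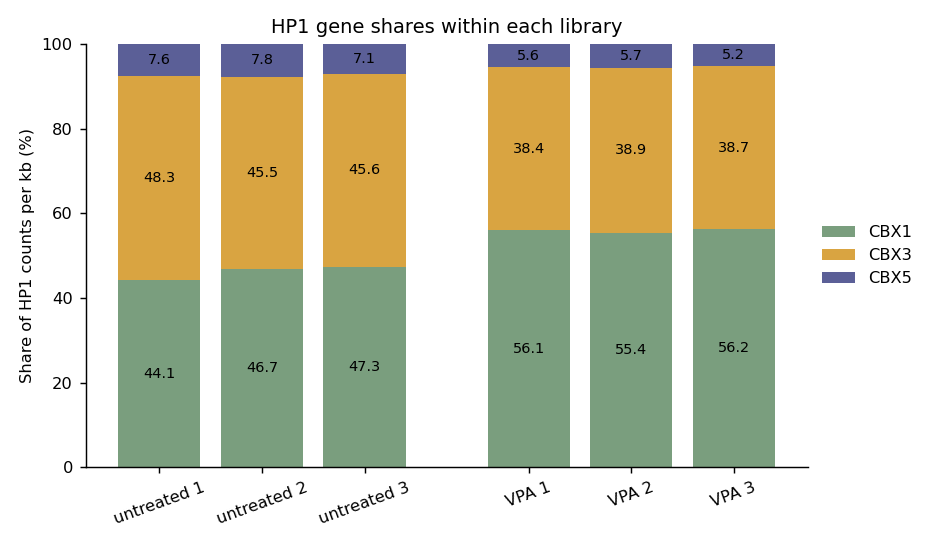
Share of each HP1 gene in the HP1 counts per kilobase of MANE transcript (y axis, percent) in each of the 6 libraries (x axis), with the share printed in each bar. CBX1 takes 44.1% to 47.3% of the untreated bars and 55.4% to 56.2% of the VPA bars.

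TRIM28, also called KAP1, on chr19:58544064-58550722 (plus strand), was the most counted of the 10 genes. It had 18711, 17720 and 17107 normalized counts untreated and 12944, 11864 and 11515 after VPA. Every untreated library stood far above every VPA library, with means of 17846 ± 810 and 12108 ± 745 (SD, n = 3 each) and a log2 fold change of -0.56 (SE 0.048, adjusted p = 1.51e-09, edgeR). Its ratio to SETDB1, its partner enzyme, was 8.43, 7.56 and 7.04 untreated and 7.40, 6.72 and 6.65 after VPA. These ratios overlapped, with a difference of -0.15 on the log2 scale (p = 0.20, two-sided exact permutation test) and -0.077 without untreated replicate 1.

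ATF7IP, also called MCAF1, on chr12:14365676-14502931 (plus strand), had 1387, 1387 and 1314 normalized counts untreated and 1528, 1563 and 1577 after VPA. It was higher in every VPA library, the opposite of its partner SETDB1, with means of 1363 ± 42.1 and 1556 ± 25.5 (SD, n = 3 each) and a log2 fold change of 0.19 (SE 0.045, adjusted p = 0.000946, edgeR). There were 0.625, 0.592 and 0.541 ATF7IP counts for each SETDB1 count before treatment and 0.873, 0.885 and 0.911 after VPA. The ratios did not overlap and differed by 0.61 on the log2 scale (p = 0.10, two-sided exact permutation test).

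Levels can be compared between genes only per length. Per kilobase of MANE transcript, the untreated means ran from TRIM28 at 5305 ± 241 normalized counts through CBX3 at 2248 ± 98.7 and CBX1 at 2228 ± 59.7, whose ranges overlapped, to EHMT2 at 670.3 ± 19.3, SETDB1 at 527.7 ± 24.0, EHMT1 at 425 ± 21.5, CBX5 at 362 ± 19.5, SUV39H2 at 245 ± 13.4, ATF7IP at 154 ± 4.77 and SETDB2 at 7.69 ± 0.236 (SD, n = 3 each). After VPA the order was the same but for CBX1, at 2441 ± 95.8, which stood above CBX3, at 1688 ± 79.8. TRIM28 was still the first and SETDB2 the last. With the length of all exons, CBX1 was above CBX3 in both groups, and EHMT1, whose exons together are long, moved from 6th to 9th place.

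Several of the 10 genes share a start region with a gene on the other strand, and 5 such neighbours within 1000 bases are in the count tables. The start of CBX5 lies 60 bases from that of HNRNPA1, an RNA-binding protein gene, which went from 54177 ± 1552 to 43805 ± 966 normalized counts (SD, n = 3 each; log2 fold change -0.31, adjusted p = 3.46e-06, edgeR). The start of CBX3 lies 367 bases from that of HNRNPA2B1, a relative of HNRNPA1, which went from 46588 ± 2263 to 38830 ± 1834 (log2 fold change -0.26, adjusted p = 7.14e-05). Both HP1 genes and both neighbours were thus lower, the HP1 genes by more, but with ribosomal protein genes held constant both neighbours lost the call, HNRNPA2B1 at 0.0099 (adjusted p = 0.862, edgeR) and HNRNPA1 at -0.034 (adjusted p = 0.478). By contrast EHMT2 was lower and C2, a complement gene 87 bases away, was higher, from 19.5 ± 2.29 to 32.6 ± 2.44 on only 158 reads in all (log2 fold change 0.74, adjusted p = 0.00555, edgeR), a call that DESeq2 did not make (adjusted p = 0.0901). ARRDC1-AS1, 86 bases from EHMT1, and CAB39L, 210 bases from SETDB2, did not pass the test, with log2 fold changes of -0.14 (adjusted p = 0.0849) and 0.0056 (adjusted p = 0.977). ARRDC1-AS1 did pass, as lower, with DESeq2 size factors (adjusted p = 0.038), without a filter on low counts (0.0307), with the replicate block (0.018), without untreated replicate 2 (0.0369) and without VPA replicate 1 (0.00737), all in edgeR.

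A further 36 genes of the H3K9 pathway were listed by role, and 33 were tested. After VPA 4 were higher and 19 lower at an adjusted p under 0.05, 10 did not pass, and with TMM none reached a log2 fold change of 1 in size. These numbers turned with the scaling, to 9 higher and 9 lower with library totals and 17 higher and 2 lower with ribosomal protein genes held constant, where MECOM and KDM4A were the lower ones. ZNF462 reached a log2 fold change of 1.01 there (adjusted p = 1.72e-10, edgeR). Of the genes named in the next paragraphs, WIZ (-0.070), CHAF1B (-0.047) and KDM3B (-0.0096) lost the call under the latter scaling, PPHLN1 (0.068) and POGZ (0.014) lost it and changed sign, and PPHLN1 also did not pass with library totals (adjusted p = 0.142, edgeR). The same 30.0% lower and 32.9% higher of all tested genes are the background of these numbers. The 51.9% and 17.7% of genes with like counts are for the range of the 9 well-counted genes, with means of 679 to 14977. Several of the 33 genes lay below that range, among them ATF7IP2, PRDM16 and ZNF462, called higher, and MECOM and JMJD1C, called lower. The median log2 fold change of the 33 genes was -0.16. SUV39H1, ATRX and PHF8, all on chromosome X, are listed at 0 in every library and were not tested.

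Of the other methyltransferases and the SETDB1 cofactor gene ATF7IP2, 2 were higher and 2 lower. MECOM, a PRDM-family gene of this class, went from 766 ± 11.1 to 575 ± 17.3 normalized counts (log2 fold change -0.41, adjusted p = 1.17e-06, edgeR). Its relative PRDM16 went from 285 ± 16.7 to 348 ± 25.2 (0.29, adjusted p = 0.00313). Among the 4 partners of G9a and GLP, 1 was higher, 2 were lower and 1 did not pass, and 2 zinc finger partners moved in opposite directions. WIZ, which links the G9a-GLP dimer to chromatin, went from 2726 ± 139 to 2153 ± 67.8 (-0.34, adjusted p = 1.15e-06), as EHMT1 and EHMT2 did. ZNF462 went from 283 ± 23.2 to 474 ± 8.23, and its log2 fold change of 0.74 (adjusted p = 1.15e-08, edgeR) was the largest of the pathway genes in either direction.

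The HUSH complex brings SETDB1 to transposons and intronless transgenes, and of its 4 listed genes 1 was higher, 1 lower and 2 did not pass. PPHLN1, which encodes periphilin, went from 1764 ± 21.7 to 1532 ± 8.32 normalized counts (log2 fold change -0.20, adjusted p = 0.000296, edgeR). TASOR, the scaffold of the complex, went from 2497 ± 37.3 to 2732 ± 71.6 (0.13, adjusted p = 0.00867), and this call was lost with DESeq2 (adjusted p = 0.0699), without untreated replicate 2 (0.0589) and without VPA replicate 2 (0.0551). MPHOSPH8, the chromodomain subunit, had 916 and 914 normalized counts.

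Partners of HP1 and heterochromatin assembly factors were lower in 9 of 11 tested genes and higher in none. Of all tested genes 30.0% were lower and 32.9% higher, and of those with counts like the 10 genes described here 51.9% and 17.7%. KMT5C lay below that range of counts. With ribosomal protein genes held constant none of these partners and factors was called lower, while 17 of the 33 pathway genes were called higher. CHAF1B, a subunit of the CAF-1 chaperone that deposits histones behind the replication fork, went from 2018 ± 18.5 to 1618 ± 38.6 normalized counts (log2 fold change -0.32, adjusted p = 1.32e-06, edgeR). POGZ, a zinc finger protein that binds HP1, went from 3382 ± 90.9 to 2829 ± 87.0 (-0.26, adjusted p = 1.28e-05). Of the H3K9 demethylases, which remove the mark, 5 of 10 were lower, none was higher and 5 did not pass. This share of lower genes was near the 51.9% above, although JMJD1C, KDM4C and KDM4D lay below that range of counts. KDM4A, which acts on the trimethylated form, went from 2737 ± 115 to 2058 ± 53.4 (-0.41, adjusted p = 4.65e-08), a log2 fold change equal to that of SETDB1 to 2 decimals. KDM3B, which acts on the lower forms, went from 4284 ± 151 to 3524 ± 101 (-0.28, adjusted p = 4.11e-06).

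**Figure D4:**
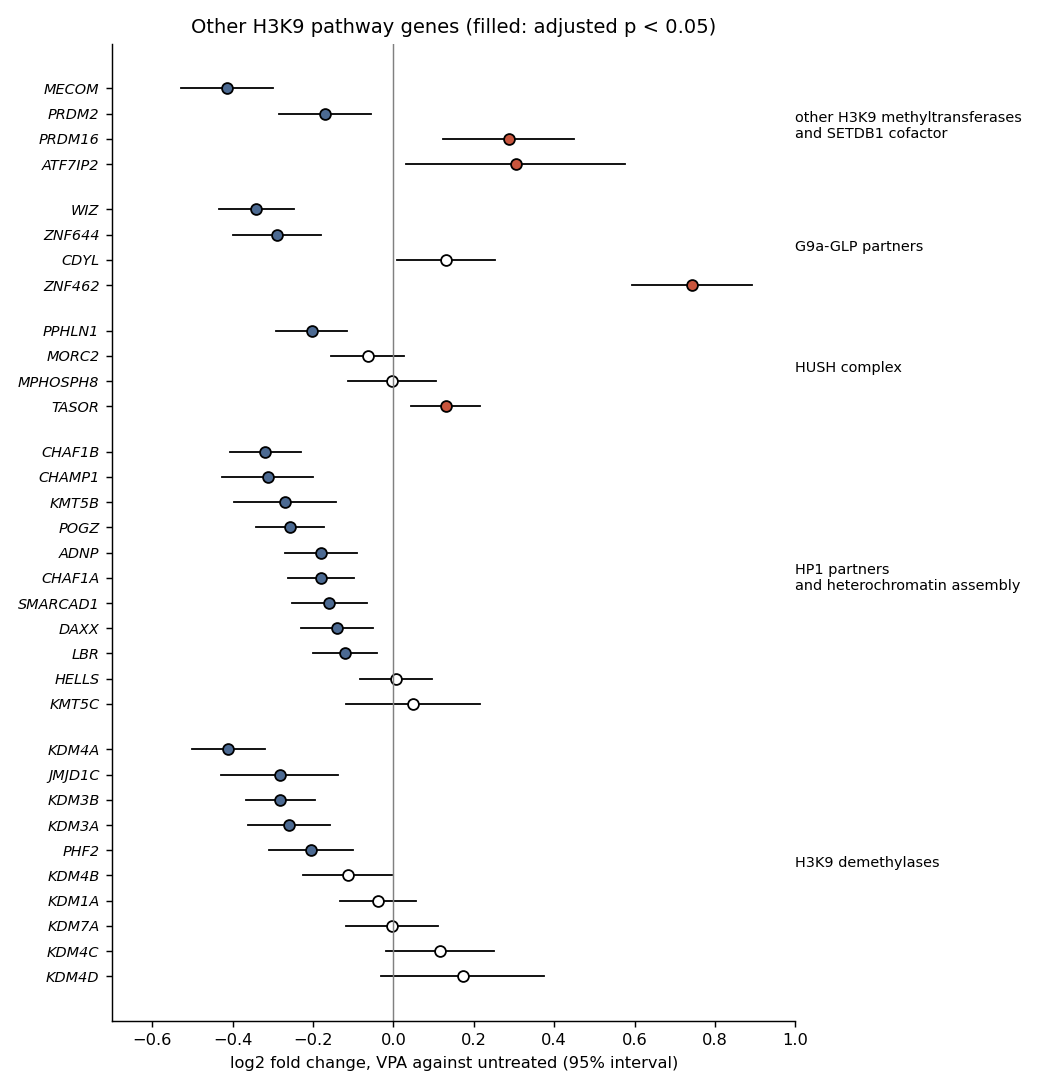
Log2 fold change (x axis, TMM scaling) after VPA of the 33 other pathway genes tested, grouped by role, with the 95% interval of the edgeR fit as a line (n = 3 libraries each). Filled points passed an adjusted p of 0.05, blue for lower and red for higher. The HP1 partners lie at or left of 0 but for HELLS and KMT5C, whose intervals span it, and ZNF462 stands alone at the right.

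How far a gene is called lower depends on what is held constant between libraries. Over all genes tested, the median of the log2 fold changes was 0.0058 after TMM, -0.019 with DESeq2 size factors, 0.071 with the upper quartile, 0.14 with library totals and 0.28 when 72 ribosomal protein genes were held constant. Of all called genes 52.3% were higher with TMM, 48.9%, 63.0% and 73.8% with the next 3 scalings and 91.6% with the ribosomal protein scaling. In the first 4 scalings 7 of the 10 genes were lower and 2 higher. With ribosomal protein genes held constant 4 remained lower, CBX5 at -0.33, TRIM28 at -0.29, and SETDB1 and CBX3 at -0.14 each, while EHMT2 (-0.080, adjusted p = 0.127) and SUV39H2 (-0.030, adjusted p = 0.667) no longer passed and EHMT1 had 0.018 (adjusted p = 0.758, edgeR). Relative to the median of all tested genes, the values with TMM were -0.61 for CBX5, -0.57 for TRIM28, -0.42 for SETDB1 and CBX3, -0.36 for EHMT2, -0.31 for SUV39H2 and -0.26 for EHMT1, and 0.13 for CBX1 and 0.19 for ATF7IP. A scaling moves all genes alike, so that these distances hardly change between scalings and say nothing of stability.

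**Figure D5:**
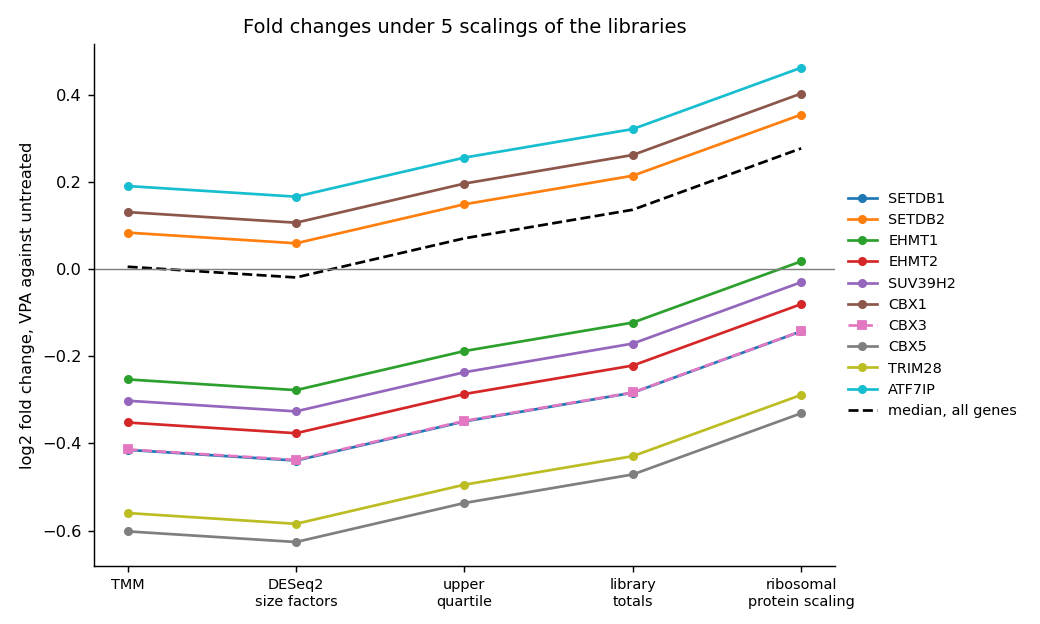
Log2 fold change (y axis) of the 10 genes after VPA under 5 scalings of the libraries (x axis), with the median of all tested genes as a dashed black line. The SETDB1 and CBX3 lines lie on each other. The lines run parallel to the median, since a scaling moves all genes alike, and EHMT1 crosses 0 when ribosomal protein genes are held constant.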

How the data were processed

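RNA-seq libraries of untreated and VPA-treated HEK293T cells (3 each) were analysed, grouped by the sample labels. Reads were filtered by the authors with SOAPnuke, mapped on hg38 with STAR 2.7.10 (2.7.10b per the labels) and assigned to genes with htseq-count 2.0.3 (HTSeq 2.0.1 per the labels). The deposited values are raw counts without normalization, and the annotation and strand setting are not given in the sources used here. Reads that mapped to several places were set aside (2.81% to 2.92% of those listed), as were ambiguous reads (1.97% to 2.10%) and reads on no gene (6.80% to 7.69%), which lowers the counts of overlapping or duplicated genes. These summary lines were left out.

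Differences were tested on the counts with edgeR 4.0.16 (R 4.3.3; TMM, filterByExpr with a count minimum of 10, robust quasi-likelihood fit, prior count 0.125, Benjamini-Hochberg adjustment over all tested genes). A gene was called at an adjusted p of 0.05, and the threshold of 1 on the log2 fold change is that of the study, whose authors used DESeq2 1.40.1. The biological coefficient of variation was 3.83%, and chi-square per gene between libraries of a group was 1.62 to 4.80, so each counted as 1 replicate. Ratios of counts within a library were compared by exact permutation. Alternatives were DESeq2 1.42.0, other scalings and filters, a replicate block and leaving out each library. The fit was tested on simulated counts. Named were all 10 genes, in each pathway role the 2 genes of smallest adjusted p that passed and those not tested, start neighbours on the opposite strand within 1000 bases, and CDKN1A, and 2 further listed genes are not reported here. MPHOSPH8, HELLS, KMT5C and ATF7IP2 were named after their values were seen. The genes and lists were chosen with earlier results of these data known. Gene coordinates are from GENCODE 44 on hg38.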

Additional observations from a re-analysis of the deposited data

How the results depend on the processing

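Over 15 alternatives for each of the 10 genes, 144 of 150 values kept their direction and their side of the threshold. Another 4 lost the call without a change of sign, and 2 changed sign. EHMT1, which changed sign with ribosomal protein genes held constant, also lost its call there (adjusted p = 0.758, edgeR). Without 1 library at a time the number of lower genes was 7 and that of higher genes 1 to 2, the lowest without VPA replicate 3, where CBX1 did not pass. With DESeq2 1 gene was higher, and with ribosomal protein genes held constant 4 were lower. Among the 36 other pathway genes the number higher was 4 in the report, 2 with DESeq2, 7 with the upper quartile, 9 with library totals, 17 with ribosomal protein genes held constant and 2 to 5 without 1 library, the lowest without VPA replicate 2. The number lower was 19 in the report, 9 with library totals, 2 with ribosomal protein genes held constant and 19 to 20 without 1 library. The ribosomal protein scaling, which raises the median of all genes, also turned the direction of EHMT1 (0.018), PPHLN1 (0.068), POGZ (0.014), HNRNPA2B1 (0.0099) and ARRDC1-AS1 (0.13). SETDB2, on few counts, ran from -0.053 without VPA replicate 2 to 0.20 without VPA replicate 3 when 1 library was left out, and reached 0.36 with ribosomal protein genes held constant. CAB39L, at 0.0056 in the report, had -0.019 with DESeq2 size factors and with DESeq2, -0.016 without a filter, -0.078 and -0.033 without untreated replicates 1 and 2 and -0.16 without VPA replicate 3 (0.11 at the highest with 1 library left out, and 0.28 with ribosomal protein genes held constant), and the cause was not tested.

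Libraries with the same replicate number correlated in their deviations from the group means at 0.126, 0.018 and 0.071. Those with different numbers lay between -0.098 and 0.031, so that 0.126 and 0.071 were above that range. All these values were low, and the numbers were not taken to pair the libraries, but a shared replicate effect is not excluded. A fit with the replicate block gave 2 genes higher and 7 lower among the 10, and 5 higher and 20 lower among the other pathway genes. Each of the 10 genes had a smaller adjusted p with the block, as CBX1 with 7.22e-05 against 0.00864 (edgeR). With the ratios of 2 genes paired by replicate number, 3 pairs allow no exact p under 0.25. Depth limits SETDB2 and C2, with 295 and 158 reads in all.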
